A study of Mus musculus with 20 samples.

Results

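The livers of 4 Cse+/- mice on a cysteine-free (no-Cys) diet were compared with those of 2 Cse+/- mice on the control diet, 6 of the 20 livers of the series that could be placed in a group. The members are the mice av01 to av04 (no-Cys) and av21 and av22 (control), taken from the study's list of mice by genotype and diet, and the last 2 are the only livers on the control diet among the 20. Cse (listed as Cth) encodes cystathionine γ-lyase, and the Cse-/- mice of the series carry the disrupted allele on a mixed 129 and C57BL/6 background. The labels call the mice described here WT, whereas the list of mice gives them as heterozygous, and they are called Cse+/- throughout. All mice were males of at least 9 weeks. All had first received 3 days of a calorie-restricted (CR) control diet, a purified food in which free amino acids replace protein, and were then kept for 2 days on a CR diet with all amino acids (control), without cysteine (no-Cys) or without tryptophan (no-Trp). CR is therefore common to every group, including the control, and no freely fed mouse is part of the comparison. In the no-Cys food the other amino acids were raised in proportion. Of the other groups, 3 Cse+/- livers on the no-Trp diet and 4 Cse-/- livers on the no-Cys diet serve below to place the members. The remaining groups were Cse-/- livers on the no-Trp diet, without or with buthionine sulfoximine (BSO), which blocks glutathione synthesis. They are not described here, but all 20 livers enter the fit from which the spread behind each call is estimated. No source used here gives the hour of day at which each liver was taken.

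A mouse with a working Cse gene can make cysteine when the food holds none. The sulfur comes from methionine, which passes through S-adenosylmethionine, homocysteine and cystathionine, and cystathionine γ-lyase releases the cysteine. Liver is the main site of this transsulfuration pathway, and it uses cysteine for glutathione, taurine, coenzyme A and proteins. A shortage of amino acids is read in liver by the kinase GCN2 and the factor ATF4, which turn on the integrated stress response (ISR), and a shortage of glutathione by NRF2, which turns on the oxidative stress response (OSR). The liver also follows feeding through its circadian clock, a loop in which BMAL1 and CLOCK turn on the genes of their own repressors.

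Reads counted on genes ranged from 11785740 to 15068939 in the no-Cys livers and were 18043106 and 15921138 in av21 and av22. Levels are given as CPM, that is counts scaled to a common library size with TMM factors, and differences as log2 fold changes, no-Cys over control, ± their standard error. A gene is called where its Benjamini-Hochberg adjusted p in edgeR's quasi-likelihood test is under 0.05. The 9 hepatocyte markers, Alb and Apoa1 among them, summed to 136600 to 164400 CPM on the no-Cys diet and to 169700 to 174600 CPM on the control diet, and none of them was called. Of the marker lists of other cells, the 8 adipose genes summed to 23.3 to 26.7 CPM against 13.2 to 14.9 CPM, with Lep and Retn at 0 in all 6 livers. The 14 genes of Kupffer and other immune cells summed to 212 to 273 CPM against 185 to 210 CPM, and the 7 endothelial genes to 211 to 243 CPM against 245 to 261 CPM. The 6 cholangiocyte genes summed to 46.1 to 58.0 CPM against 57.4 to 83.0 CPM, and 1 of them, Krt7, was called lower (−1.28 ± 0.33, edgeR adjusted p = 0.0441, a call lost without av01, av02, av03, av21 or av22, without a filter on low counts and after thinning). In whole liver, fewer cells of a type and less RNA per cell cannot be told apart, and the part of these markers in the results was not tested. The genotype was checked by Cth itself (ENSMUSG00000028179, chr3:157894248-157925077, minus strand). It stood at 332, 125, 132 and 121 CPM in av01 to av04 and at 205 and 184 CPM in av21 and av22, against 6.37 to 13.3 CPM in the Cse-/- livers on the no-Cys diet. All 6 members thus lay above every Cse-/- liver.

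After 2 days without cysteine few genes were called in Cse+/- liver, in a test with 2 controls. Of 14759 genes tested, 146 (0.989%) were called with higher levels under cysteine lack and 176 (1.19%) with lower levels, together 2.18%. The median change was 1.74-fold among the higher genes and 1.88-fold among the lower ones, with 48 and 73 genes changed by at least 2-fold. Among the largest changes were clock genes in both directions, with Nr1d1, Dbp and Bhlhe41 higher and Arntl lower, and the metallothioneins Mt1 and Mt2, which were lower. The median log2 fold change over all genes tested was 0.01. At an unadjusted p under 0.05 stood 2456 genes (16.6%), and the 2 groups did not overlap for 3784 genes (25.6%). Between the no-Cys groups of both genotypes, of 4 livers each, 3515 genes (23.8%) were called. Between the no-Cys diet (4) and the no-Trp diet (3) in Cse+/- livers it was 1186 (8.04%). The group sizes differ from those of the main comparison, so these counts do not rank the sizes of the differences.

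**Figure D1:**
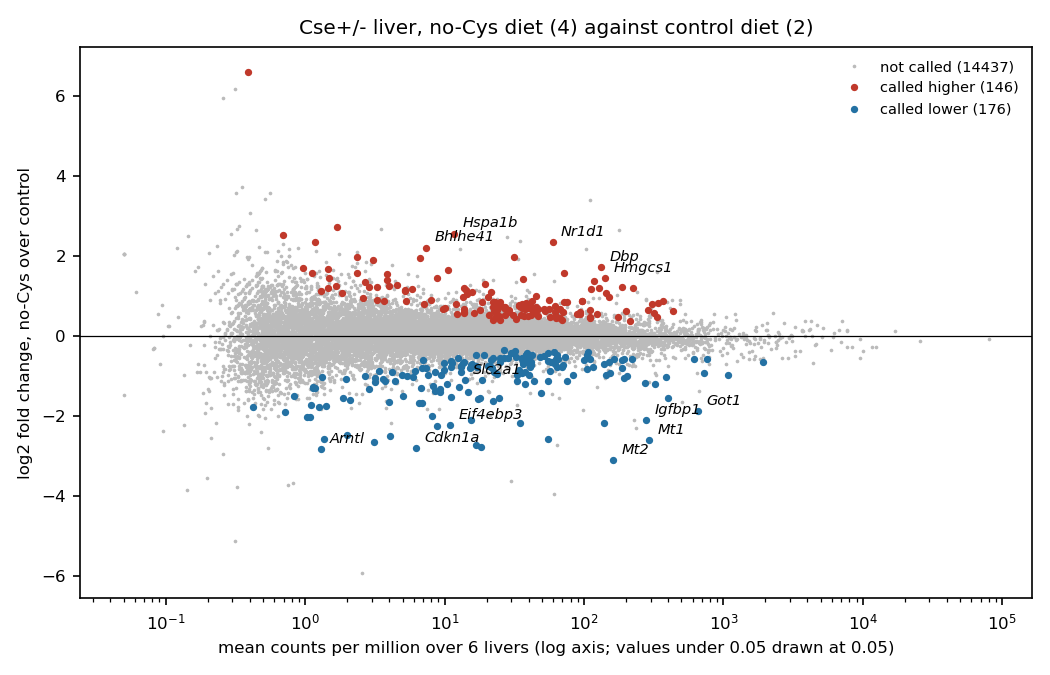
Log2 fold change (no-Cys over control, vertical axis) against mean CPM over the 6 livers (log axis) for the 14759 genes tested, 1 point per gene. The 146 genes called higher (red) and 176 called lower (blue) lie at all levels of expression, with Nr1d1, Dbp and Hspa1b among the higher and Mt2, Mt1 and Got1 among the lower.

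The calls rest on the control pair. Without av22, with av21 as the lone control and assumed to vary like the other groups, 10 genes were called (3 higher and 7 lower), and without av21, 211 (55 higher and 156 lower). Leaving out a no-Cys liver gave 169 (without av02), 214 (without av03), 387 (without av04) and 418 (without av01). Called in each of the 6 fits that left out 1 liver were 8 genes, Nr1d1 and Dbp, both higher, and Got1, Slc2a1, Eif4ebp3, Ablim3, Rnd1 and Ppp1r1b, all lower. All other genes called below lost the call without av22, and further livers that decide a call are named with the gene. With only the 2 diet groups fitted, and likewise with only the 9 libraries labelled WT, Hspa1b, Sgsm1, Mt2, Cdkn1a, Ikzf4, Mat2a, Trib3, Sdsl, Asl, Me1, Acss2, Slc2a2, Nr1d2, Bhlhe40, Igf1, Hsd3b7, Slc30a1, Nfe2l2 and Krt7 lost the call. Mt1 and Btg2 lost it in the former fit alone, and Klhdc7a, Pfkfb3, Col15a1, Hmgcs1, Scara5, Tchh, Slc5a6 and Slc30a10 in the latter alone. Calls are those of edgeR with all libraries unless another fit is named. The lists below are described by their counts and medians, which are shown in the plot of list members. Over all genes 0.989% were called higher and 1.19% lower, and the calls of each list are to be read beside these shares.

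**Figure D2:**
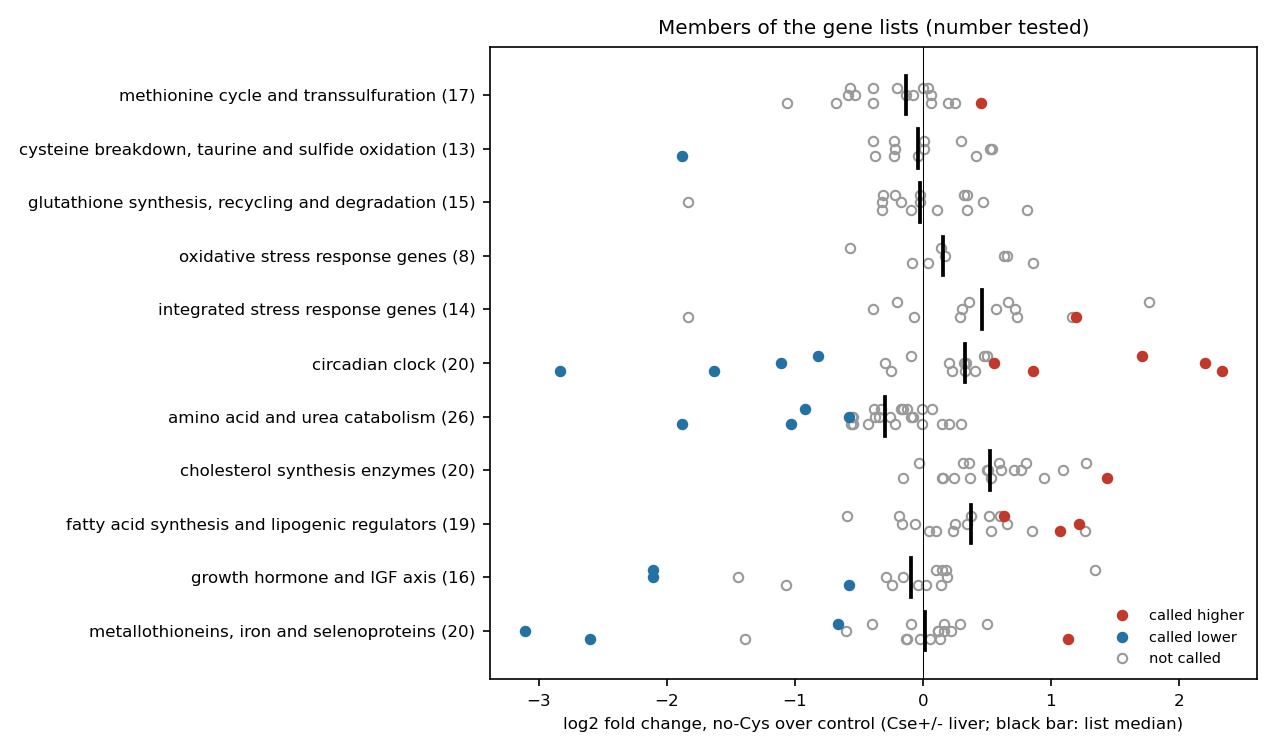
Log2 fold change (no-Cys over control) of the tested members of 11 gene lists, 1 point per gene, with the number tested in brackets and the list median as a black bar. Filled points are called higher (red) or lower (blue). The clock list holds 9 filled points on both sides of 0, and most cholesterol synthesis genes lie to the right of 0 without being called.

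The circadian clock held the most calls of any list examined, 5 genes higher and 4 lower of 20 tested, against 0.989% and 1.19% of all genes. The core activator pair is BMAL1 (Arntl) and CLOCK. REV-ERBα (Nr1d1) and REV-ERBβ (Nr1d2) repress Arntl. Nr1d1 (ENSMUSG00000020889, chr11:98767932-98775333, minus strand) was expressed at 78.9, 96.8, 72.2 and 77.8 CPM on the no-Cys diet and at 15.6 and 16.6 CPM on the control diet. Every no-Cys liver was more than 4 times above both controls, and the change was 5.05-fold, with a log2 fold change of 2.34 ± 0.25 and an edgeR adjusted p of 7.97e-05. Nr1d2 was at 149, 150.5, 135 and 119 CPM against 98.7 and 89.9 CPM, without overlap (log2 fold change 0.56 ± 0.13, edgeR adjusted p = 0.0247). Arntl (ENSMUSG00000055116, chr7:113207465-113314126, plus strand) went the other way, with 0.631, 0.423, 0.389 and 0.283 CPM against 2.97 and 3.13 CPM. It was lower in every no-Cys liver than in either control, 7.12-fold (log2 fold change −2.83 ± 0.49, edgeR adjusted p = 0.00582). Clock itself was at 21.6, 27.1, 22.6 and 20.4 CPM against 25.3 and 29.2 CPM, overlapping and not called. Without av22, the adjusted p was 0.094 for Arntl and 0.386 for Nr1d2, and Nr1d2 also lost its call without av02 or av21.

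Among the output genes and repressors of the loop, Dbp (ENSMUSG00000059824, chr7:45705088-45710203, plus strand), a PAR bZIP activator of liver metabolism, stood at 137, 194, 186 and 178 CPM against 55.0 and 50.8 CPM. The lowest no-Cys liver was well over both controls, and the change was 3.28-fold (log2 fold change 1.71 ± 0.16, edgeR adjusted p = 2.52e-05, the smallest of all genes tested). Of its exon bases 18.0% overlap another gene, Sphk2, and the reads of overlapping genes cannot be told apart here. Nfil3, a repressor at the sites that DBP binds, was at 9.19, 14.8, 11.6 and 16.9 CPM against 28.0 and 54.0 CPM. The groups did not overlap, though the controls lay far apart (log2 fold change −1.63 ± 0.25, edgeR adjusted p = 0.00255). Bhlhe41 (DEC2), a repressor at E-boxes, was at 9.82, 13.3, 8.40 and 8.49 CPM against 2.44 and 1.88 CPM, 4.60-fold higher (log2 fold change 2.20 ± 0.39, edgeR adjusted p = 0.00649). Of its exon bases 19.0% overlap the gene model Gm43909. Its relative Bhlhe40 (DEC1) was at 128, 107, 123 and 93.5 CPM against 71.5 and 52.8 CPM (log2 fold change 0.86 ± 0.18, edgeR adjusted p = 0.0173). Both DEC genes were thus higher in every no-Cys liver than in either control. Cry1, a repressor of BMAL1 and CLOCK, was at 17.0, 9.60, 14.9 and 11.7 CPM against 28.6 and 28.6 CPM and so lower in every no-Cys liver (log2 fold change −1.11 ± 0.21, edgeR adjusted p = 0.00866). Without av22 the calls of Nfil3, Bhlhe41, Bhlhe40 and Cry1 were lost (adjusted p 0.187, 0.179, 0.397 and 0.135), and the log2 fold change of Nfil3 was −1.09. Without that liver, 2 of the 20 clock genes were called, and 8 or 9 when any other liver was left out.

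**Figure D3:**
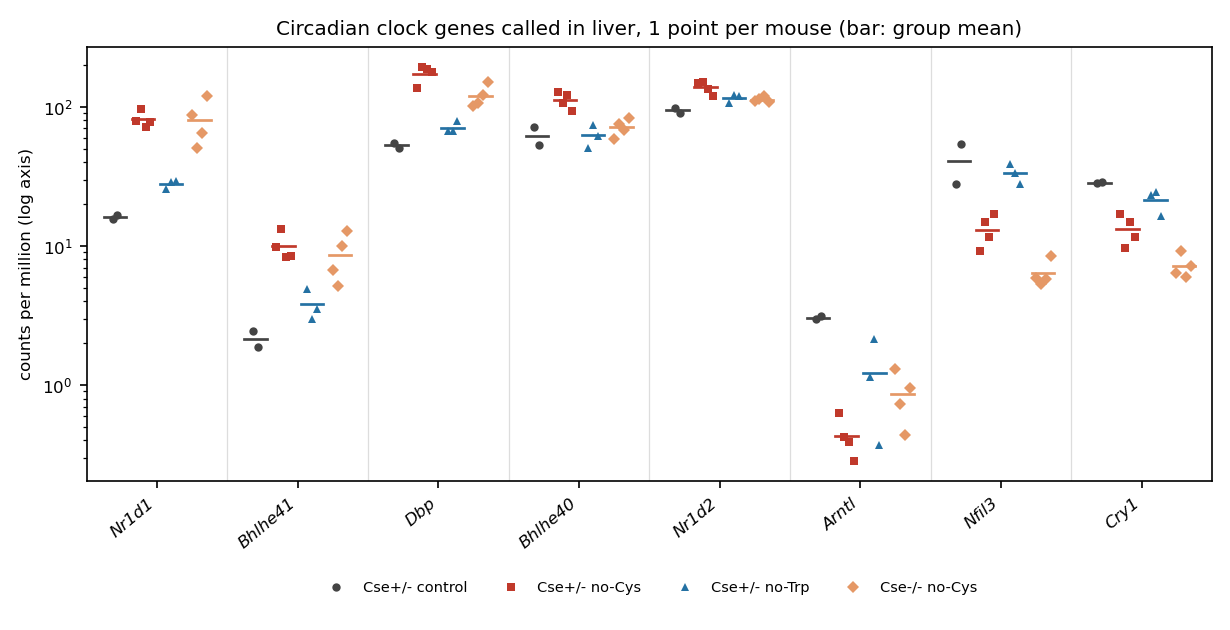
CPM (log axis) of 8 of the 9 called clock genes in Cse+/- livers on the control, no-Cys and no-Trp diets and in Cse-/- livers on the no-Cys diet, 1 point per mouse, with a bar at the group mean. For Nr1d1, Bhlhe41 and Arntl the no-Trp livers mostly lie between the control and the no-Cys livers.

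Of the 20 clock genes 11 did not pass edgeR's test, and DESeq2 called 11 of the 20, Per2 and Tef among them. Of those that did not pass, Per2 was at 84.0, 68.5, 74.7 and 73.8 CPM against 57.6 and 50.3 CPM (log2 fold change 0.48 ± 0.14, edgeR adjusted p = 0.0859), and Per3, Ciart, Tef and Usp2 were likewise above both controls in all 4 no-Cys livers, with log2 fold changes of 0.40 ± 0.19, 0.50 ± 0.24, 0.33 ± 0.11 and 0.23 ± 0.19. Per1, Hlf and Noct overlapped between the diets, as did Rora. Cry2 had a log2 fold change of −0.29 ± 0.12. The list median was 0.33, against 0.01 over all genes.

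The same genes were set beside the no-Trp diet, with the no-Cys livers on the other side of the test. Nr1d1 was at 25.7, 29.0 and 29.2 CPM in the no-Trp livers, above both controls and below every no-Cys liver, and the no-Cys diet exceeded the no-Trp diet by 1.54 ± 0.20 on the log2 scale (edgeR adjusted p = 0.000369). Dbp was at 66.6, 67.2 and 79.0 CPM on the no-Trp diet, and the difference between the diets was 1.29 ± 0.14 (edgeR adjusted p = 4.72e-05). Bhlhe41 and Bhlhe40 were higher on the no-Cys than on the no-Trp diet by 1.43 ± 0.31 and 0.85 ± 0.16, and Nfil3, Arntl and Cry1 were lower, with log2 differences of −1.34 ± 0.23, −1.59 ± 0.48 and −0.69 ± 0.19 (edgeR adjusted p = 0.0083, 0.00353, 0.00229, 0.0457 and 0.0301). Arntl lost this call without av02, av03, av04, av17 or av19 and Cry1 without av02, av04, av17 or av19, and without av19 their log2 differences were −0.74 and −0.58 (adjusted p 0.416 and 0.124). Of the 20 clock genes, the no-Cys diet had 7 higher and 3 lower than the no-Trp diet, against 4.63% and 3.41% of all genes. In Cse-/- livers on the same no-Cys diet, Nr1d1 stood at 88.1, 50.4, 65.2 and 120.0 CPM, a range that spans the Cse+/- values (log2 difference −0.01 ± 0.18, edgeR adjusted p = 0.979). Cry1 and Nfil3 were lower still in Cse-/- livers, with log2 differences of −0.88 ± 0.19 and −1.05 ± 0.24 (edgeR adjusted p = 0.0022 and 0.00327), and Dbp was also lower than in Cse+/- livers (−0.53 ± 0.12, edgeR adjusted p = 0.00372). Of the 20 genes, 12 were lower and 0 higher in Cse-/- than in Cse+/- livers, against 12.2% and 11.6% of all genes.

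Because clock genes were called in both directions, their promoters were read from the RefSeq windows of GRCm38.p6, which run from 250 bases before to 50 bases after a transcription start. The E-box CACGTG, the element that BMAL1 and CLOCK bind, reads the same on both strands and occurs in 7.15% of 32851 windows. Of the 9 called clock genes, 7 have a window, and 2 of these, Bhlhe41 and Cry1, hold the E-box, against 3 of 10 windows among the clock genes that were not called (Per1, Tef and Ciart). Of these 2 promoters, 1 belongs to a gene that was higher and 1 to a gene that was lower. They are printed with the E-box in capitals, at chr6:145865371-145865670, minus strand, and chr10:85185005-85185304, minus strand. The E-box begins 153 bases before the start of Bhlhe41 and 60 bases before that of Cry1. The half-site AGGTCA, read on both strands, to which REV-ERB proteins bind, occurs in 16.3% of all windows. It lies in 3 of the 7 windows of called clock genes (Arntl, Nr1d2 and Nfil3) and in 2 of the 10 windows of those not called (Clock and Per1). Such matches describe the sequence and do not show that a factor binds there.
Bhlhe41: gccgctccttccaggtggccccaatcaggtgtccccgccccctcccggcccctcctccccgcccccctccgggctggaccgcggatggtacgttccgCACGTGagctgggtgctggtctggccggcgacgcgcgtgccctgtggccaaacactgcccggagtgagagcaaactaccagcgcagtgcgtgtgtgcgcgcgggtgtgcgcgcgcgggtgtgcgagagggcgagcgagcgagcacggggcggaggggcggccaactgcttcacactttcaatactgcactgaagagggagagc
Cry1: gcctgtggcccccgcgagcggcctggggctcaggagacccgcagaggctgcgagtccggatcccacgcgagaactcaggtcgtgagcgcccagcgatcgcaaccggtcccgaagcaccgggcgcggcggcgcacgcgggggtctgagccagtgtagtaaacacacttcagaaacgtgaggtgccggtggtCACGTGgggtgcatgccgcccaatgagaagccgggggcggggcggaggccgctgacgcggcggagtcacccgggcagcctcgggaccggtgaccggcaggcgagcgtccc

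Of 26 genes for amino acid and urea catabolism, 4 were called lower on the no-Cys diet and 0 higher, against 1.19% and 0.989% of all genes. Got1 fell by the most. In all, 22 of them had a log2 fold change under 0, as did 7172 of all 14759 genes. The list median was −0.30, against 0.01 over all genes. Got1 (ENSMUSG00000025190, chr19:43499752-43524605, minus strand), the cytosolic aspartate aminotransferase, which also transaminates cysteine sulfinate, was at 415, 281, 431 and 260.2 CPM on the no-Cys diet against 1086 and 1472 CPM in the controls. It was lower than either control in all 4 livers, 3.69-fold in all (log2 fold change −1.88 ± 0.23, edgeR adjusted p = 0.000338), and remained called whichever liver was left out. Aass, the first enzyme of lysine breakdown, was at 376, 260.1, 286 and 227 CPM against 516 and 657 CPM (log2 fold change −1.03 ± 0.19, edgeR adjusted p = 0.00701). Asl, the argininosuccinate lyase of the urea cycle, was at 755, 472, 500.4 and 520.1 CPM against 1030.0 and 1102 CPM (log2 fold change −0.92 ± 0.19, edgeR adjusted p = 0.0138). In both cases av01 was the highest no-Cys liver and still below both controls. Gpt2, the mitochondrial alanine aminotransferase, fell to 508 to 547 CPM from 746 and 835 CPM (log2 fold change −0.58 ± 0.13, edgeR adjusted p = 0.0251). The highest log2 fold change in the list was that of Amdhd1, a histidine-degrading enzyme, at 0.30 ± 0.12 (edgeR adjusted p = 0.21). Without av22 the calls of Aass, Asl and Gpt2 were lost (adjusted p 0.21, 0.212 and 0.372). Asl also lost its call without av21, and Gpt2 without av02, av03 or av21. Without av01, 8 of the 26 genes were called and the list median was −0.41.

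Of the serine, glycine and one-carbon enzymes, 1 of 21 was called higher and 2 lower, against 0.989% and 1.19% of all genes. Sds, serine dehydratase, which turns serine into pyruvate, was at 236, 174, 178 and 178 CPM against 378 and 496 CPM. All 4 no-Cys livers were below both controls (log2 fold change −1.19 ± 0.20, edgeR adjusted p = 0.00547). Its paralog Sdsl was at 23.7, 12.6, 16.9 and 16.1 CPM against 28.4 and 31.1 CPM (log2 fold change −0.79 ± 0.17, edgeR adjusted p = 0.0178). Amt, the aminomethyltransferase of the glycine cleavage system, was higher, at 47.6, 49.2, 47.8 and 52.2 CPM against 32.1 and 31.6 CPM, and varied little within either diet (log2 fold change 0.63 ± 0.11, edgeR adjusted p = 0.00678). Psat1, of serine synthesis, had the highest log2 fold change in the list at 1.16 ± 0.80, from 0.933 to 1.13 CPM against 0.418 to 0.476 CPM, and was not called (edgeR adjusted p = 0.492). Sds shares 19.9% of its sequence windows (all stretches of 61 bases, the read length) with other genes. Without av22 the calls of Sds, Sdsl and Amt were lost (adjusted p 0.179, 0.281 and 0.17), and that of Sdsl also without av21.

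Against the no-Trp diet, Got1, Amt and Amdhd1 were called among these enzymes. Got1 was lower on the no-Cys than on the no-Trp diet, on which it stood at 761, 580.2 and 604 CPM, with a log2 difference of −0.90 ± 0.21 (edgeR adjusted p = 0.0117, 0.0521 without the no-Trp liver av17). Amt and Amdhd1 were higher than on the no-Trp diet, with log2 differences of 0.54 ± 0.10 and 0.74 ± 0.11 (edgeR adjusted p = 0.00286 and 0.000555). Asl, Sds and Gpt2 stood at 433 to 650.2, 141 to 222 and 471 to 601 CPM on the no-Trp diet, with log2 differences from the no-Cys diet of 0.03 ± 0.17, 0.11 ± 0.19 and −0.02 ± 0.12, and those of Aass and Sdsl were −0.36 ± 0.17 and −0.21 ± 0.15, none of the 5 called. In Cse-/- livers on the no-Cys diet Got1 was at 902, 926, 928 and 952 CPM, above all 4 Cse+/- livers on that diet (log2 difference 1.42 ± 0.20, edgeR adjusted p = 5.08e-05).

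Few genes of the making and use of cysteine were called. Of 17 genes of the methionine cycle and transsulfuration, 1 was called higher and 0 lower, while DESeq2 called 2, and edgeR without av01 called 3. At an unadjusted p under 0.05 stood 1 with higher and 4 with lower values, against 8.43% and 8.21% of all genes. The lower ones were Nnmt and Mat1a, Gnmt and Ahcy, the last 3 with log2 fold changes of −0.68 ± 0.25, −0.57 ± 0.18 and −0.53 ± 0.20 (edgeR adjusted p = 0.168, 0.0988 and 0.185). Mat2a, an enzyme that makes S-adenosylmethionine, was at 122, 120.5, 117 and 124 CPM against 91.4 and 85.5 CPM, above both controls in all 4 livers (log2 fold change 0.45 ± 0.11, edgeR adjusted p = 0.0287). It lost this call without av02, av21 or av22 (adjusted p 0.403 without av22) and without a filter on low counts. Cth, with the values given above, had a log2 fold change of −0.13 ± 0.34 (edgeR adjusted p = 0.883), and av01 was the only no-Cys liver above the controls. The lowest of the list was Nnmt, which methylates nicotinamide, at −1.06 ± 0.41 (edgeR adjusted p = 0.191), and it was called without a filter or without av01. Of 13 genes for cysteine breakdown, taurine and sulfide oxidation edgeR called 1 with all libraries, Got1, while DESeq2 and edgeR without av01 called 2. Cdo1, the cysteine dioxygenase that opens cysteine breakdown, had a log2 fold change of −0.04 ± 0.14, and Ethe1, the persulfide dioxygenase of sulfide oxidation, had the highest, 0.54 ± 0.15 (edgeR adjusted p = 0.0681), and was called by DESeq2.

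None of 15 glutathione genes was called by edgeR with all libraries and the filter. With only the 2 diet groups edgeR called 2 (Gclc and Chac1), with only the 9 libraries labelled WT 1 (Chac1) and without av01 2, Gclc among them. Without a filter on low counts Gclc and Chac1 were called as well. DESeq2 called 3, and 5 with higher and 1 with lower values stood at an unadjusted p under 0.05, against 8.43% and 8.21% of all genes. Gclc, the catalytic subunit of the ligase that opens glutathione synthesis, was at 168, 227, 185 and 215 CPM against 114 and 113 CPM, and its modifier subunit Gclm at 269.6, 245, 223 and 225 CPM against 175 and 172 CPM. Both subunits were above the controls in every no-Cys liver, with log2 fold changes of 0.81 ± 0.22 and 0.47 ± 0.13 (edgeR adjusted p = 0.0553 and 0.0626). Chac1, which degrades glutathione and is also an ISR gene, was at 3.60, 5.36, 4.59 and 2.48 CPM against 12.5 and 16.1 CPM, below both controls throughout (log2 fold change −1.83 ± 0.53, edgeR adjusted p = 0.0775). Nfe2l2, which encodes NRF2, was called higher, at 72.4, 81.3, 65.8 and 86.8 CPM against 52.2 and 44.2 CPM (log2 fold change 0.67 ± 0.15, edgeR adjusted p = 0.0202). It was picked after its values were seen, and its call was lost without av02, av21 or av22 (adjusted p 0.403 without av22).

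Of the 8 OSR genes that the study names, edgeR called none between the diets in Cse+/- livers, DESeq2 called 1, and 2 stood at an unadjusted p under 0.05. Srxn1 was called by edgeR without a filter, at a mean of at least 1 CPM and without av01. Their median log2 fold change was 0.16. Srxn1, sulfiredoxin, was at 21.5, 25.3, 30.4 and 29.4 CPM against 16.1 and 18.3 CPM, without overlap (log2 fold change 0.63 ± 0.17, edgeR adjusted p = 0.0553). The highest and lowest members were the glutathione transferases Gstm3 and Gsta1, at 0.86 ± 0.43 and −0.57 ± 0.60, and Gsta1 shares 87.9% of its sequence windows with related genes. In Cse-/- against Cse+/- livers on the no-Cys diet all 8 were called higher, against 11.6% of all genes, with a median of 2.04. Of the 14 ISR genes, 1 was called higher between the diets and 0 lower, with a median of 0.46, against 11 higher (11.6% of all genes) and a median of 1.82 between the genotypes. The study names both lists, chosen at least in part on livers of these groups, so that the difference between the genotypes is not independent evidence. Trib3, a pseudokinase induced by ATF4, was at 13.4, 23.6, 12.3 and 18.7 CPM against 9.22 and 5.57 CPM (log2 fold change 1.20 ± 0.28, edgeR adjusted p = 0.0247). Every no-Cys liver was above both controls, and the call was lost without av02 or av22 (adjusted p 0.447 without av22). Asns, asparagine synthetase, had the highest log2 fold change at 1.77 ± 0.80, but its values of 16.6, 1.48, 3.19 and 0.920 CPM overlapped the controls at 1.31 and 1.81 CPM, and without av01 the log2 fold change was 0.26. Between genotypes Asns differed by 4.46 ± 0.51 and Trib3 by 1.63 ± 0.20 (edgeR adjusted p = 7.77e-06 and 1.8e-05). None of 20 cytosolic aminoacyl-tRNA synthetases and none of 19 amino acid transporters was called between the diets. DESeq2 called 1 of each (Eprs and Slc43a1), edgeR called Slc43a1 with only the 2 diet groups or without a filter, and 2 and 3 of them stood at an unadjusted p under 0.05. The extremes among the synthetases were Cars at 0.46 ± 0.31 and Eprs at −0.35 ± 0.11, and among the transporters Slc7a8 at 0.75 ± 0.25 and Slc43a1 at −1.07 ± 0.32. Between genotypes 17 synthetases were called higher, against 11.6% of all genes.

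A few genes of lipid synthesis were called higher on the no-Cys diet. Of 20 enzymes of cholesterol synthesis 1 was called, 4 by DESeq2 and 3 with only the 2 diet groups fitted, while 18 had a log2 fold change above 0 and 10 stood, with higher values, at an unadjusted p under 0.05. Of all 14759 genes 7587 lay above 0, and 8.43% were higher at an unadjusted p under 0.05. The list median was 0.52, against 0.01 over all genes. Hmgcs1 (ENSMUSG00000093930, chr13:119690379-119708260, plus strand), the synthase that makes the precursor of mevalonate, was at 147, 238, 136 and 193 CPM on the no-Cys diet and 76.1 and 55.8 CPM on the control diet. The lowest no-Cys liver was above both controls, and the change was 2.71-fold (log2 fold change 1.44 ± 0.31, edgeR adjusted p = 0.0187). Idi1, the isopentenyl isomerase, had the next highest log2 fold change, 1.27 ± 0.50 (edgeR adjusted p = 0.198), and Ebp the lowest, −0.16 ± 0.12. The list median moved with the control pair, to 0.76 without av21 and 0.30 without av22. Hmgcs1 lost its call without av02, av21 or av22 (adjusted p 0.372 without av22), and 10.7% of its sequence windows are shared with other genes.

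Of 19 genes of fatty acid synthesis 3 were called, all higher, against 0.989% of all genes, with a list median of 0.38. Fasn, fatty acid synthase, was at 157, 196, 162 and 177 CPM against 87.0 and 77.4 CPM (log2 fold change 1.07 ± 0.25, edgeR adjusted p = 0.0271). Me1, malic enzyme, which supplies NADPH to it, was at 160.5, 319, 184 and 261 CPM against 94.8 and 104 CPM (log2 fold change 1.22 ± 0.27, edgeR adjusted p = 0.0187). Acss2, which makes acetyl-CoA from acetate, was at 120.3, 130.4, 116 and 137 CPM against 90.9 and 71.6 CPM (log2 fold change 0.63 ± 0.15, edgeR adjusted p = 0.0247). All 3 were above both controls in every no-Cys liver. Their calls were lost without av02 or av22, and for Fasn and Me1 without av21 (adjusted p 0.373, 0.233 and 0.459 without av22). Me1 shares 24.2% of its sequence windows with other genes. Pnpla3, a lipogenic lipase, had the highest log2 fold change, 1.27 ± 0.53, at under 2 CPM, and Thrsp the lowest, −0.59 ± 0.49, and neither was called. That of Pnpla3 ranged from 0.62 to 2.31 when 1 liver was left out. None of 32 PPARα targets and genes of fatty acid oxidation was called by edgeR, DESeq2 called 2, edgeR with only the 2 diet groups 2, and 2 stood at an unadjusted p under 0.05. Their median was −0.03. The lowest was Plin5, a lipid droplet protein, at −0.96 ± 0.31.

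On the no-Trp diet Hmgcs1 was at 37.2, 65.4 and 77.4 CPM, Fasn at 79.4, 92.5 and 71.3 CPM and Me1 at 65.2, 85.6 and 136 CPM. These values lay around the controls, and the no-Cys diet exceeded the no-Trp diet by 1.57 ± 0.27, 1.09 ± 0.22 and 1.27 ± 0.23 on the log2 scale (edgeR adjusted p = 0.00224, 0.00541 and 0.00297). Of the 20 cholesterol genes 14 were higher on the no-Cys than on the no-Trp diet (4.63% of all genes), with a median of 1.06. In Cse-/- livers on the no-Cys diet 18 of the 20 were lower than in Cse+/- livers on that diet (12.2% of all genes), with a median of −1.31, and Hmgcs1 was at 43.4, 77.8, 55.0 and 74.0 CPM there (log2 difference −1.51 ± 0.24, edgeR adjusted p = 0.00023). Fasn and Acss2 differed between genotypes by −1.04 ± 0.20 and −0.89 ± 0.12 (edgeR adjusted p = 0.000853 and 3.04e-05).

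The Hmgcs1 promoter is shown because Hmgcs1 was the cholesterol gene called by edgeR with all libraries and the only one of the list whose window holds the sterol response element TCACNCCAC, searched on both strands and found in 1.24% of all windows. None of the 14 windows of cholesterol genes that were not called holds these letters. The element (in capitals, at chr13:119690101-119690400, plus strand) begins 137 bases before the start.
Hmgcs1: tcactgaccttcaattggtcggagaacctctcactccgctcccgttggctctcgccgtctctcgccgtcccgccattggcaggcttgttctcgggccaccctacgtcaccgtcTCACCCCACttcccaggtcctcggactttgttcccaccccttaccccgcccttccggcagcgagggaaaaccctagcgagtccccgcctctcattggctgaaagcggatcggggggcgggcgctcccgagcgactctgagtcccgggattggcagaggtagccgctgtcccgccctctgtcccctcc

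Metallothioneins, small cysteine-rich proteins that bind zinc and copper, were lower on the no-Cys diet. Mt1 (ENSMUSG00000031765, chr8:94179082-94180327, plus strand) was at 185, 40.8, 116 and 95.4 CPM on the no-Cys diet and 334 and 992 CPM on the control diet. Mt2 (ENSMUSG00000031762, chr8:94172664-94173568, plus strand) was at 96.5, 12.8, 45.0 and 28.8 CPM against 188 and 598 CPM. For both genes av01 was the highest no-Cys liver and still below both controls, which themselves differed about 3-fold. The log2 fold change was −2.60 ± 0.48 for Mt1 and −3.11 ± 0.61 for Mt2 (edgeR adjusted p = 0.0078 and 0.0123). Of the exon bases of Mt2, 73.5% overlap the gene model Gm45774, and 38.7% of its sequence windows are shared. Slc30a1, a zinc exporter of the cell membrane, was at 33.8, 38.0, 31.1 and 27.2 CPM against 47.1 and 55.8 CPM (log2 fold change −0.66 ± 0.12, edgeR adjusted p = 0.00649). Slc30a10, a manganese exporter, went the other way, at 17.9, 21.2, 12.8 and 17.9 CPM against 7.97 and 7.94 CPM (log2 fold change 1.13 ± 0.26, edgeR adjusted p = 0.0233). The other 16 of 20 genes for metals and selenoproteins were not called, and the list median was 0.02. Without av22 the log2 fold changes of Mt1 and Mt2 were −1.62 and −2.05, and the calls of Mt1, Mt2, Slc30a1 and Slc30a10 were lost (adjusted p 0.372, 0.372, 0.201 and 0.299). Slc30a10 also lost its call without av02 or av21. Of the 4 calls, 1 remained with only the 2 diet groups fitted (Slc30a10) and 1 with only the 9 libraries labelled WT (Mt1).

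On the no-Trp diet Mt1 was at 1562, 730.2 and 896 CPM and Mt2 at 1225, 465 and 506 CPM, all above every no-Cys liver, and the levels on the no-Cys diet were lower, with log2 differences of −3.28 ± 0.46 and −4.00 ± 0.60 (edgeR adjusted p = 0.000522 and 0.000763). Slc30a1 was also lower than on the no-Trp diet, with a log2 difference of −0.67 ± 0.11 (edgeR adjusted p = 0.00108). In Cse-/- livers on the no-Cys diet Mt1 stood at 282, 229, 346 and 441 CPM and Mt2 at 124, 103, 174 and 177 CPM, higher than in Cse+/- livers by 1.57 ± 0.42 and 1.66 ± 0.53 on the log2 scale (edgeR adjusted p = 0.0104 and 0.0287). For Mt2 this call was lost without av02, av03, av04, av07 or av08 (adjusted p 0.0541 to 0.0801).

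The Mt1 and Mt2 promoters are shown because these genes, neighbours on chromosome 8, moved together. The core of the metal response element was searched as TGCGCNC or TGCACNC on both strands and occurs in 25.7% of all windows. All 4 called genes of the metal list hold it (Mt1, Mt2, Slc30a1 and Slc30a10), and 3 of 13 windows of those not called. Mt1 has 3 matches (chr8:94178839-94179138, plus strand) and Mt2 has 4 (chr8:94172368-94172667, plus strand), printed in capitals whichever strand they lie on. The genes Slc30a1 and Slc30a10, which hold the same core, changed in opposite directions.
Mt1: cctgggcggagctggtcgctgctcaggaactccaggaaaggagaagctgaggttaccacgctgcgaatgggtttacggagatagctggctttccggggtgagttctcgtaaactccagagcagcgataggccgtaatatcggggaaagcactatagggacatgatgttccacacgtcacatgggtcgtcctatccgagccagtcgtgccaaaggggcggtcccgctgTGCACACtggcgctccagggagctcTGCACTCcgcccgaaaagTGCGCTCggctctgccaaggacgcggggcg
Mt2: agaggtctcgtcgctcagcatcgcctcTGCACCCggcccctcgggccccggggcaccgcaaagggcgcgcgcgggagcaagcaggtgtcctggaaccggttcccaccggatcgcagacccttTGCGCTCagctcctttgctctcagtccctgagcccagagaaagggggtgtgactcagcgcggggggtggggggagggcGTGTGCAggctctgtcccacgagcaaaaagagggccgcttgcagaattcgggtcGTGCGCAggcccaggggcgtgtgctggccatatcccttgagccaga

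**Figure D4:**
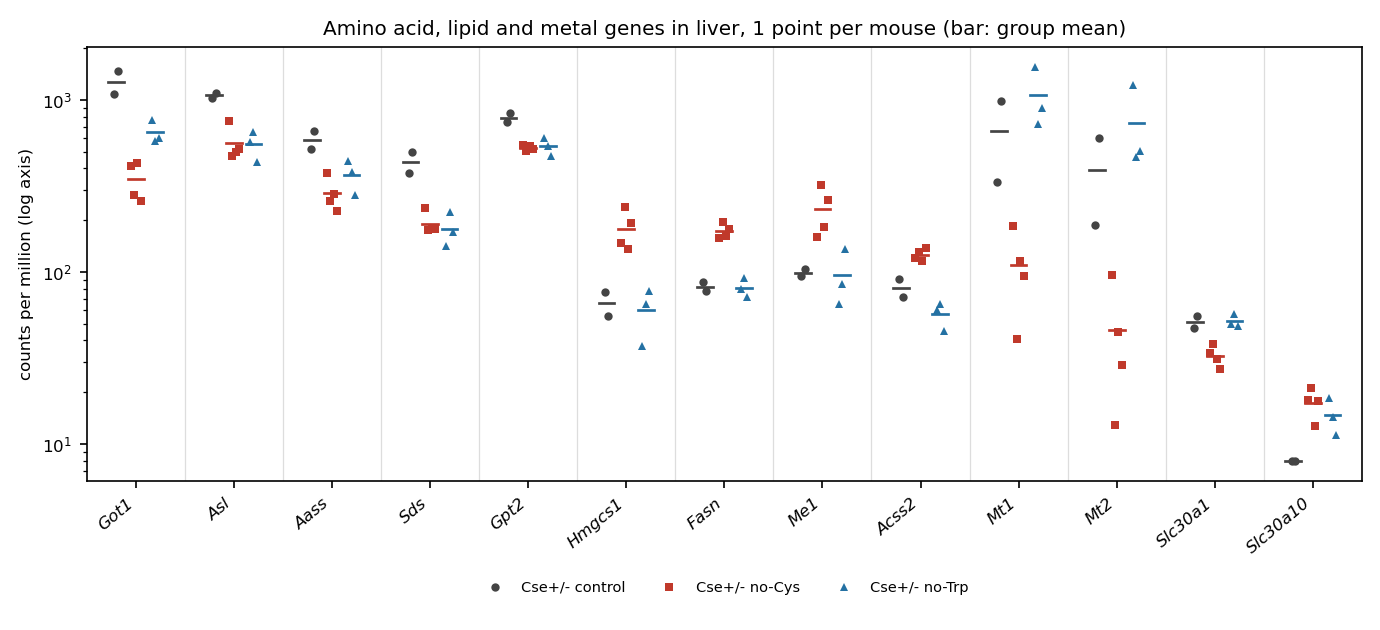
CPM (log axis) of called genes for amino acid breakdown (Got1 to Gpt2), lipid synthesis (Hmgcs1 to Acss2) and metal handling (Mt1 to Slc30a10) in Cse+/- livers on the control, no-Cys and no-Trp diets, 1 point per mouse, with a bar at the group mean. The no-Cys livers lie below both controls for the amino acid genes, Mt1, Mt2 and Slc30a1 and above both for the lipid genes and Slc30a10.

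In the growth hormone and IGF axis 3 of 16 genes were called, all lower, against 1.19% of all genes. The list median was −0.09, and it moved to 0.02 without av04 and to −0.28 without av21. Cish, a suppressor of cytokine signalling that STAT5 turns on, was at 13.2, 7.34, 5.60 and 3.61 CPM against 28.5 and 34.9 CPM (log2 fold change −2.11 ± 0.37, edgeR adjusted p = 0.0059). Igf1, the main growth factor that liver secretes, was at 681, 639, 695 and 594 CPM against 854 and 1097 CPM (log2 fold change −0.58 ± 0.12, edgeR adjusted p = 0.0138). Igfbp1, a secreted binding protein of IGF1 that insulin represses, was at 80.2, 139, 156 and 157 CPM against 282 and 866 CPM (log2 fold change −2.11 ± 0.41, edgeR adjusted p = 0.0117). All 3 were lower in every no-Cys liver than in either control, and for Igfbp1 the controls differed about 3-fold. Without av22 the calls were lost (adjusted p 0.124, 0.423 and 0.519), and the log2 fold change was −1.09 for Igfbp1 and −0.39 for Igf1. Bcl6, a repressor of STAT5 targets, had the highest log2 fold change in the list, 1.34 ± 0.66, with overlapping groups. Against the no-Trp diet Cish differed by −2.40 ± 0.34, with 52.5, 36.7 and 27.7 CPM there (edgeR adjusted p = 0.000522). Igf1 and Igfbp1 were not called against that diet, with log2 differences of −0.33 ± 0.11 and −1.11 ± 0.38 (edgeR adjusted p = 0.0641 and 0.0748).

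Of 21 cell cycle genes and p53 targets, 2 were called lower and 0 higher, against 1.19% and 0.989% of all genes. Cdkn1a (p21), an inhibitor of the cell cycle, was at 0.721, 1.13, 1.79 and 4.53 CPM against 6.60 and 22.9 CPM, and Btg2, an antiproliferative gene, at 12.3, 7.55, 13.0 and 10.8 CPM against 19.4 and 44.7 CPM. In both, av22 was more than 2 times above av21, and the groups did not overlap (log2 fold change −2.81 ± 0.56 and −1.56 ± 0.26, edgeR adjusted p = 0.0123 and 0.00535). Without av22 they were −1.66 and −0.84, and not called (adjusted p 0.459 and 0.341). In Cse-/- livers on the no-Cys diet Cdkn1a was at 12.3, 9.38, 22.5 and 5.75 CPM, above all Cse+/- livers on that diet (log2 difference 2.58 ± 0.50, edgeR adjusted p = 0.00097). The highest of the list was Ccnd1, cyclin D1, at 1.08 ± 0.37 (edgeR adjusted p = 0.129), called higher by DESeq2 and without a filter on low counts.

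For glucose, Igfbp1 and 2 further genes of 21 were called, both of them higher, and DESeq2 called 6 of the 21. Pfkfb3, which makes the activator of glycolysis fructose-2,6-bisphosphate, was at 65.2, 92.1, 105 and 107 CPM against 31.8 and 30.0 CPM (log2 fold change 1.58 ± 0.32, edgeR adjusted p = 0.0135). Slc2a2 (GLUT2), the glucose carrier of hepatocytes, was at 546, 514, 478 and 423 CPM against 337 and 297 CPM (log2 fold change 0.63 ± 0.15, edgeR adjusted p = 0.0287). Slc2a1 (GLUT1), a carrier of most other cell types, was lower, at 10.0, 8.82, 10.5 and 11.0 CPM against 22.9 and 20.6 CPM, and kept its call whichever liver was left out (log2 fold change −1.11 ± 0.15, edgeR adjusted p = 0.00056). It was named because of this, after its values were seen. Without av22 or av21 the calls of Pfkfb3 and Slc2a2 were lost (adjusted p 0.238 and 0.421 without av22), and Slc2a2 also lost it without av02. Among the coenzyme A genes, Acss2 and Slc5a6 were called of 15. Slc5a6, the carrier of pantothenate and biotin, was at 25.9, 24.1, 28.7 and 26.5 CPM against 15.7 and 13.6 CPM (log2 fold change 0.84 ± 0.16, edgeR adjusted p = 0.012, 0.254 without av22). The lowest of that list was Acsl1, an acyl-CoA synthetase, at −0.40 ± 0.23.

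Of 17 genes of bile acid synthesis and transport 2 were called, both higher, against 0.989% of all genes, and DESeq2 called 3. Hsd3b7, an enzyme of bile acid synthesis, was at 313, 489, 464 and 458 CPM against 239 and 231 CPM (log2 fold change 0.88 ± 0.19, edgeR adjusted p = 0.0193). Nearly all of its exon bases (99.2%) overlap other genes in the annotation used here. Reads of such overlaps cannot be told apart, and whether they were counted is not known here. Abcb11, the bile salt export pump, was at 379.8, 345, 337 and 364 CPM against 206 and 204 CPM (log2 fold change 0.80 ± 0.20, edgeR adjusted p = 0.0397). Its call was lost without any 1 of the 6 livers, with adjusted p up to 0.383, and that of Hsd3b7 without av02, av21 or av22 (up to 0.307). The lowest of the list was Cyp8b1, a sterol hydroxylase, at −0.51 ± 0.55.

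The strongest increase among the genes named by size was that of Hspa1b, an inducible HSP70 chaperone and the 1 gene of 26 for the unfolded protein response and heat shock that edgeR called with all libraries (2 by DESeq2 and 2 without av02). It was at 9.73, 6.70, 28.9 and 19.6 CPM against 3.27 and 2.23 CPM, 5.86-fold higher (log2 fold change 2.55 ± 0.56, edgeR adjusted p = 0.0187), and 59.4% of its sequence windows are shared with Hspa1a and other genes. Its call was lost without av21 or av22 (adjusted p 0.323 without av22). The lowest of that list was Creld2, of the endoplasmic reticulum, at −0.33 ± 0.38. Klhdc7a, a kelch domain gene, was at 20.9, 57.6, 43.8 and 46.1 CPM against 11.2 and 10.5 CPM, and Shank2, a scaffold protein best known from synapses, at 18.7, 14.6, 10.4 and 11.2 CPM against 5.29 and 3.48 CPM. Both were well above the controls in every no-Cys liver (log2 fold change 1.96 ± 0.33 and 1.63 ± 0.29, edgeR adjusted p = 0.005 and 0.00582). The remaining genes with the largest increases were Spon2 and Col15a1, which encode proteins of the extracellular matrix, Camk4, a calcium-dependent kinase, and Sgsm1, with log2 fold changes of 1.93 ± 0.39, 1.55 ± 0.32, 1.88 ± 0.48 and 1.66 ± 0.42 (edgeR adjusted p = 0.0133, 0.0135, 0.0466 and 0.042). Without av22 none of these 6 genes was called, with adjusted p from 0.128 for Klhdc7a to 0.487 for Sgsm1. Spon2 and Col15a1 also depended on av21, Sgsm1 on av02, av04 and av21, and Camk4 on av01, av02, av03 and av21. Thinned to the shallowest library, Camk4 was not called.

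Among the largest decreases, Scara5, a receptor for ferritin, was at 14.1, 3.67, 5.44 and 1.77 CPM against 35.0 and 48.7 CPM (log2 fold change −2.78 ± 0.60, edgeR adjusted p = 0.0183). Plk3, a stress-responsive kinase, was at 99.6, 43.5, 57.3 and 54.9 CPM against 186 and 389 CPM (log2 fold change −2.17 ± 0.29, edgeR adjusted p = 0.00056). Myc, the growth-promoting transcription factor, was at 4.33, 3.95, 4.36 and 3.11 CPM against 16.4 and 21.2 CPM (log2 fold change −2.25 ± 0.49, edgeR adjusted p = 0.0185). In all 3 the no-Cys livers lay below both controls. Eif4ebp3, a repressor of cap-dependent translation, was at 5.95, 4.51, 4.12 and 5.09 CPM against 23.0 and 22.8 CPM, 4.67-fold lower (log2 fold change −2.22 ± 0.32, edgeR adjusted p = 0.00119), and was called in all fits that left out 1 liver, though 67.3% of its exon bases overlap another gene model. Fam107a, Ikzf4, Tchh and Fbf1 had log2 fold changes of −2.66 ± 0.46, −2.59 ± 0.54, −2.48 ± 0.63 and −2.18 ± 0.51 (edgeR adjusted p = 0.00547, 0.0138, 0.0441 and 0.0278). Without av22 the calls of these 4 and of Scara5, Plk3 and Myc were lost, with adjusted p from 0.0846 for Plk3 to 0.45 for Ikzf4, whose log2 fold change was then −1.68. Scara5 also depended on av02 and av03, Myc on av02, Tchh on av02, av03, av04 and av21, and Fbf1 on av01, av02, av03 and av21.

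Of the 8 genes called whichever liver was left out, 3 have not yet been described, and they were likewise chosen after their values were seen. Rnd1, a small GTPase, was at 7.03, 7.48, 6.53 and 7.64 CPM against 18.0 and 15.3 CPM (log2 fold change −1.22 ± 0.16, edgeR adjusted p = 0.00056). Ppp1r1b (DARPP-32), a phosphatase inhibitor, was at 4.87, 5.79, 5.83 and 6.01 CPM against 16.5 and 12.6 CPM (log2 fold change −1.37 ± 0.21, edgeR adjusted p = 0.00221). Ablim3, an actin-binding protein, was at 25.6, 20.5, 31.4 and 27.8 CPM against 58.7 and 63.4 CPM (log2 fold change −1.21 ± 0.16, edgeR adjusted p = 0.00056). In each the no-Cys livers lay close together and well below the lower control. All 3 were also lower than on the no-Trp diet, with log2 differences of −0.68 ± 0.15, −0.73 ± 0.19 and −0.68 ± 0.14 (edgeR adjusted p = 0.00885, 0.0237 and 0.00814). For Ppp1r1b that call was lost without av01, av02, av17 or av19 (adjusted p 0.0516 to 0.0655). Between genotypes on the no-Cys diet Ppp1r1b was lower in Cse-/- livers (−1.06 ± 0.20, edgeR adjusted p = 0.000812) and Rnd1 higher (0.59 ± 0.14, edgeR adjusted p = 0.00532).

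A further 3 lists held no call by edgeR. Of 33 cytochrome P450 genes DESeq2 called 1 and 2 stood at an unadjusted p under 0.05, and the extremes were Cyp2b9 at 2.17 ± 1.39 and Cyp2b10 at −1.01 ± 0.68. Of 22 acute phase genes DESeq2 called 0 and 4 stood at an unadjusted p under 0.05, with the serum amyloid gene Saa2 at 3.40 ± 1.55, with 526 CPM in av01 and 10.1 to 85.2 CPM in the other no-Cys livers, and Hamp, which encodes hepcidin, at −1.39 ± 0.46 and called without a filter on low counts. Of 11 mRNAs of the mitochondrial genome DESeq2 called 1 and 2 stood at an unadjusted p under 0.05, with mt-Atp6 at 0.24 ± 0.69 and mt-Co2 at −0.61 ± 0.43, of whose sequence windows 99.5% and 100% are shared with other genes. The medians of the acute phase and mitochondrial lists were 0.21 and −0.17. When 1 liver was left out, the acute phase median ran from −0.13 (without av01) to 0.36 (without av04). The mitochondrial one ran from −0.29 (without av04) to −0.04 (without av21).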

How the data were processed

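Poly(A) RNA of each liver was sequenced from both ends with 61 cycles per end. The authors deposited raw counts per gene, without normalization. Per the submitters' processing notes, HISAT2 2.1.0, HTSeq 0.11.0 and the build GRCm38 were used. The annotation release and the strand setting of the counting are not given in the sources used here, and the library kit does not mark strand, so that reads of overlapping genes cannot be told apart. Columns were assigned through the study's list of mice. The same mouse numbers also stand in its list for another experiment, so the list with the groups of this series was used, in which the borders between groups follow the labelled group sizes, and 1 of 21 columns, of no group, was not used.

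Symbols and positions were taken from an annotation of GRCm38, which gave 45229 of 46078 genes a symbol. The 20 libraries of 6 groups were fitted together with edgeR 4.0.16 in R 4.3.3 (quasi-likelihood test, two-sided, TMM factors, a mean per group, common dispersion 0.027), so that the spread of the control pair is estimated from all groups. Low genes were dropped with filterByExpr (counts of at least 10, a total of at least 15), and p-values were adjusted over all 14759 by the Benjamini-Hochberg method. The fit was tested on simulated data. Libraries of 1 group differed by more than counting noise (chi-square per gene 15.1 to 49.8 among the members, over genes with at least 20 counts in a pair). The labels call the libraries biological replicates, and each is 1 mouse.

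Members and gene lists were chosen with earlier results of these data known. Named were, for each direction, the 12 called genes that changed most, of at least 1 CPM on average and without overlap of the groups, and in each list the called, the highest and the lowest members. Unnamed gene models were passed over. Promoter windows are those of RefSeq. The alternatives were DESeq2 1.42.0, the factors RLE and upper quartile, all genes unfiltered, a mean of at least 1 CPM, only the groups compared, only the 9 libraries labelled WT, thinning to the shallowest library, an adjusted p under 0.01 and leaving out each library. Some genes that the rule would name are not reported here.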

Additional observations from a re-analysis of the deposited data

Results flagged for a closer look

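In groups of 4 a liver was singled out where its gap to the next one took up an unusual share of the group's range (Dixon's ratio), which chance does in about 1 in 20 groups. Of 111 items examined in the no-Cys group, namely genes and the total count on genes, this met 9, all of them genes. In 6 of them the liver was av01. Cth was at 331.9 CPM there, against 120.6 to 131.7 CPM in the other 3 no-Cys livers, and Asns at 16.58 CPM against 0.9198 to 3.188 CPM. Asl was at 755.4 CPM against 471.8 to 520.1 CPM, and Sds at 235.6 CPM against 174.4 to 177.9 CPM. For Asl and Sds av01 lay nearer to the controls than the other livers did. For Cth it lay above them. Sik1, a kinase induced by cAMP signalling, was at 38.73 CPM in av02, against 28.15 to 29.92 CPM in the others. Saa2, a serum amyloid gene, was at 525.6 CPM in av01, against 10.09 to 85.16 CPM. Cyp8b1, the sterol hydroxylase of bile acid synthesis, was at 160.7 CPM in av03, against 225.2 to 236.8 CPM. The mitochondrial mRNA mt-Co2, all of whose sequence windows are shared with other genes, was at 30.78 CPM in av04, against 14.15 to 15.95 CPM. Acsl1, an acyl-CoA synthetase, was at 1022 CPM in av01, against 1482 to 1523 CPM.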

How the results depend on the processing

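The number of genes called between the no-Cys and control diets moved with the processing. DESeq2 called 312 higher and 303 lower, a fit of only the 2 groups compared 59 and 79, and a fit of only the 9 libraries labelled WT 43 and 66. Without a filter 211 were higher and 275 lower, and at an adjusted p under 0.01 the counts were 21 and 41. Leaving out 1 liver gave 3 to 197 higher and 7 to 222 lower, both lowest without av22. RLE and upper-quartile factors, a mean of at least 1 CPM and thinning stayed within 1.5 times in both directions. Between the no-Cys and no-Trp diets a fit of only the 2 groups gave 335 higher and 245 lower, the 9 libraries labelled WT 452 higher, an adjusted p under 0.01 192 and 137, and leaving out 1 liver 332 to 705 and 256 to 624. Between the genotypes an adjusted p under 0.01 gave 892 higher and 968 lower, and leaving out 1 liver 1291 to 1676 and 1259 to 1824. The cause was not tested. A fit without av21 or without av22 has 1 control left, and how far its lower power moved these counts was not tested.

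Directions reversed only when a liver was left out. Between the diets, the log2 fold change of Cth ranged from −0.6161 (without av01) to 0.0214, with 0.0020 without av02, and that of Cdo1 from −0.1506 (without av01) to 0.0295, with 0.0099 and 0.0278 without av02 and av03. Without av21 and without av22, the extremes were 0.0637 and −1.0683 for mt-Co2 and −0.0446 and 0.5877 for mt-Atp6. Against the no-Trp diet, the log2 difference ranged from −0.0332 to 0.2982 for Sds (−0.0061 without av01), from −0.1045 to 0.0662 for Gpt2, from −0.1467 to 0.1604 for Asl (−0.1175 without av20) and from −0.7121 (without av01) to 1.1794 for Asns. Between genotypes it ranged from −0.2612 to 0.1558 for Nr1d1 (0.0845 and 0.1003 without av02 and av07) and from −0.1400 to 0.5064 for Cish (−0.0161 without av03). None of these differences was called with all livers.

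No paired analysis was possible because the columns of the count table carry no replicate number that is shared between the diets. Depth limits genes of about 1 CPM, such as Arntl and Psat1, which rest on few reads per liver.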

Other observations

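Further genes were looked up after the calls had been seen and are given as values only. The 8 genes that follow were picked because they were called lower (1.19% of all genes), and the number of like genes that were not called was not counted. Rcl1, of the small ribosomal subunit's processing, was at 136, 171, 132 and 156 CPM against 202 and 322 CPM, and Nle1, of the large subunit's assembly, at 5.41, 4.66, 4.04 and 4.10 CPM against 6.90 and 15.7 CPM. Tsr1, Nop16, Polr1a, Pak1ip1, Ftsj3 and Mybbp1a had log2 fold changes of −0.98 ± 0.23, −0.53 ± 0.11, −0.54 ± 0.12, −0.49 ± 0.09, −0.64 ± 0.14 and −0.50 ± 0.11 (edgeR adjusted p = 0.03, 0.0138, 0.0191, 0.00678, 0.02 and 0.0247). In Cse-/- livers on the no-Cys diet, Tsr1, Polr1a, Ftsj3 and Mybbp1a were higher than in Cse+/- livers on that diet, by 0.93 ± 0.20, 0.53 ± 0.10, 0.54 ± 0.12 and 0.71 ± 0.10 (edgeR adjusted p = 0.00204, 0.000839, 0.00276 and 4.06e-05). All 8 genes lost the call between the diets without av22, when the log2 fold changes of Rcl1, Nle1, Tsr1, Polr1a, Ftsj3 and Mybbp1a were −0.44, −0.61, −0.47, −0.27, −0.33 and −0.27. Without av02 the calls of Tsr1, Polr1a, Ftsj3 and Mybbp1a were lost, without av04 that of Tsr1, without av21 that of Nop16, and after thinning that of Mybbp1a. With only the 2 diet groups fitted all 8 lost the call, and with only the 9 libraries labelled WT all but Pak1ip1. Tsr1 shares 27.5% of its sequence windows with other genes.

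Among other metabolic genes, Nampt, which makes the NAD precursor nicotinamide mononucleotide, was at 122, 109, 140.5 and 96.4 CPM on the no-Cys diet against 210.2 and 237 CPM (log2 fold change −0.93 ± 0.14, edgeR adjusted p = 0.00241). Gpat4, an enzyme of glycerolipid synthesis, was at 220.3, 199.7, 257 and 223 CPM against 439 and 595 CPM (log2 fold change −1.20 ± 0.16, edgeR adjusted p = 0.00056). Por, the reductase that serves the cytochrome P450 enzymes, was at 1139, 584, 800.3 and 728 CPM against 1514 and 1680.0 CPM (log2 fold change −0.97 ± 0.20, edgeR adjusted p = 0.0138), and Apoa5, an apolipoprotein that lowers plasma triglyceride, at 1690.0, 1390.0, 1708 and 1598 CPM against 2422 and 2628 CPM (log2 fold change −0.66 ± 0.12, edgeR adjusted p = 0.00582). All 4 were lower in every no-Cys liver than in either control, and 20.8% of the exon bases of Apoa5 overlap another gene. Fkbp5, a target of the glucocorticoid receptor, and Sik1 were lower as well, with log2 fold changes of −1.07 ± 0.26 and −1.12 ± 0.26 (edgeR adjusted p = 0.0374 and 0.0267). Without av22 all 6 calls were lost (adjusted p 0.0964 for Nampt to 0.632 for Sik1), and the log2 fold change of Sik1 was −0.60. Fkbp5 and Sik1 also lost the call without av03 or av04, and Fkbp5 without av02. Por, Fkbp5 and Sik1 lost it with only the 2 diet groups fitted and with only the 9 libraries labelled WT.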
